A study of Solanum lycopersicum with 6 samples.

Results

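The 10 genes described here make up a pair of tandem clusters of chlorophyll a/b-binding protein genes in tomato (*Solanum lycopersicum*), 6 with identifiers on chromosome 2 and 4 on chromosome 3. They were taken by identifier, with earlier results of these data known, from 23709 genes listed in at least 1 library. Of the 10, 9 were listed with reads and 1 was not. RNA came from fruit pericarp, the fleshy fruit wall, at 38 days post anthesis, and was sequenced from 3 wild-type libraries and 3 libraries of the genotype SlDof1 RNAi. SlDof1 belongs to the Dof family of plant zinc-finger transcription factors, and in RNAi its transcript is targeted by double-stranded RNA. The titles of the RNAi libraries carry the name SlDof-8, which the labels do not explain. The labels give no cultivar, no promoter of the RNAi construct and no gene identifier for SlDof1, so its silencing was not checked here.

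Chlorophyll a/b-binding proteins are encoded in the nucleus and imported into the chloroplast, where they hold chlorophyll and carotenoids in the antenna that feeds light energy to the photosystems. The genes are known for strong induction by light, control by the circadian clock and high transcript levels in green tissue. In ripening tomato fruit, chloroplasts turn into chromoplasts and the antenna is lost with the chlorophyll. In tomato the major antenna protein of photosystem II is made from small families of near-identical tandem copies, the *Cab-1* genes on chromosome 2 and the *Cab-3* genes on chromosome 3. The RefSeq table for assembly SLM_r2.1 places Cab-1A, Cab-1D, a gene with the synonym Cab-1C, and CAB1B in 1 uninterrupted run on chromosome 2. The run is shared only with a gene called CBP1. The table counts CBP1 and CBP2 among 6 genes on chromosome 2 with a chlorophyll a/b-binding name. It puts 1 other gene between CBP2 and Cab-1A. On chromosome 3 it places a gene with the synonyms CAB3A and CAB3B and the gene Cab-3C with 1 other gene between them. That table holds 0 of the identifiers used in the expression files, so no copy name is tied to an identifier below.

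The libraries held between 9608643 and 10002358 expected counts, estimated reads per gene in which a read that matches several copies is divided among them. A count of 0 in a library allows up to 3 counts, by counting error only. Identifiers recalled for 5 ripening genes of the fruit stood at 137 to 13127 FPKM (fragments scaled by gene length and library size) over the libraries, as a check of the labelled tissue. Their levels were not even over the 6 libraries. The ranges pool both genotypes, so differences between genotypes and between libraries of a group are not separated in them. Solyc10g080210 ran from 137 to 1646 FPKM and Solyc05g012020 from 217 to 530 FPKM. Solyc03g031860 ran from 757 to 1441, Solyc09g089580 from 3387 to 4792 and Solyc07g049530 from 9094 to 13127 FPKM. Whether this relates to the levels of the members was not tested. Wild-type library 1 and RNAi library 3 stood apart from the other 4 libraries. With the cluster members, their neighbours and other photosynthesis genes left out, the second principal component of log2 CPM (counts scaled to library size) over 16696 genes held 30.1% of the variance and put these libraries at 32.5 and 31.9, against -18.0 to -13.8 for the rest. The first component (51.6%) separated the genotypes. Tests of the members, sums, neighbours and other photosynthesis genes are therefore given with and without this pair of libraries, and the spread, ratio and correlations with all 6.

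Division of reads among copies showed most in the counts of chromosome 3. Of their 22 expected counts above 0, 16 were not whole numbers (72.7%, at a tolerance of 0.005), against 3 of 22 on chromosome 2 (13.6%) and 5.35% over all listed genes. Levels of single copies on both chromosomes thus depend on how shared reads were assigned. The summed expected count of each cluster does not, as far as reads are shared within it. A whole count does not show that no read was shared, so these percentages cannot rank the clusters by sharing. Of the 9 listed members, 5 had enough counts to be tested, 2 on chromosome 2 and 3 on chromosome 3.

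On chromosome 3, transcripts of 1 copy dominated. Solyc03g005760 (listed length 804 bases) was at 78.4, 124 and 141 FPKM in wild-type libraries 1 to 3 and at 173, 173 and 103 FPKM in RNAi libraries 1 to 3. RNAi libraries 1 and 2 were above every wild-type library, RNAi library 3 was below wild-type libraries 2 and 3, and the groups overlapped. The fitted RNAi to wild-type difference was 0.33 ± 0.25 on the log2 scale (SE, n = 3 per group, 95% interval -0.25 to 0.91; edgeR quasi-likelihood test, Benjamini-Hochberg adjusted p = 0.479).

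Its neighbour Solyc03g005770, of the same listed length, was at 13.9, 18.8 and 18.3 FPKM in wild type and at 27.6, 22.5 and 13.8 FPKM in RNAi fruit. Again RNAi libraries 1 and 2 were highest, and RNAi library 3 was level with wild-type library 1. The fitted difference was 0.27 ± 0.25 (log2, SE; edgeR adjusted p = 0.570). Solyc03g005780 was detected at a low level, 0.85, 1.49 and 2.28 FPKM in wild type and 3.24, 1.55 and 0.81 FPKM in RNAi fruit, and did not pass either (log2 difference 0.25 ± 0.54 SE, edgeR adjusted p = 0.832). Its fitted direction changed when wild-type library 1 (-0.05) or RNAi library 1 (-0.38) was left out. Solyc03g005790, listed at 543 bases, had expected counts of 1, 0 and 2 in wild type and 1, 0 and 1 in RNAi fruit, too few for the main test.

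On chromosome 2, Solyc02g070940 (798 bases) was the main copy. It was at 7.77, 28.1 and 32.2 FPKM in wild-type libraries 1 to 3 and at 31.6, 32.3 and 9.39 FPKM in RNAi libraries 1 to 3. The level was thus nearly the same in 4 libraries of both genotypes and about as low in wild-type library 1 as in RNAi library 3. The fitted difference was 0.05 ± 0.54 (log2, SE, 95% interval -1.19 to 1.30; edgeR adjusted p = 0.970), and it turned to -0.36, -0.17 and -0.22 without wild-type library 1, RNAi library 1 and RNAi library 2.

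Solyc02g071010, the other tested copy there, was lower in level, at 0.95, 3.28 and 4.04 FPKM in wild type and 6.18, 7.09 and 1.77 FPKM in RNAi fruit. RNAi libraries 1 and 2 were above every wild-type library, and RNAi library 3 was again low. It had the largest fitted difference of the 5 tested members, 0.81 ± 0.56 on the log2 scale (SE, 95% interval -0.48 to 2.10), which did not pass (edgeR adjusted p = 0.434).

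The remaining chromosome 2 copies were near the limit of detection. Solyc02g070980 had expected counts of 0, 2 and 3 in wild type and 9, 12.4 and 4 in RNAi fruit. Its groups did not overlap in FPKM, as was the case for 31% of all tested genes. It had too few counts for the main test and, in an edgeR fit without a filter on low counts, did not pass (unadjusted p = 0.0146, adjusted p = 0.117). Solyc02g070950 had expected counts of 0, 4 and 7 in wild type and 6, 9 and 0 in RNAi fruit, so that it was undetected in the same libraries in which Solyc02g070940 was low. Solyc02g070970 had 3 counts in RNAi library 2 and 0 elsewhere, and Solyc02g070990 was listed in no library.

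**Figure D1:**
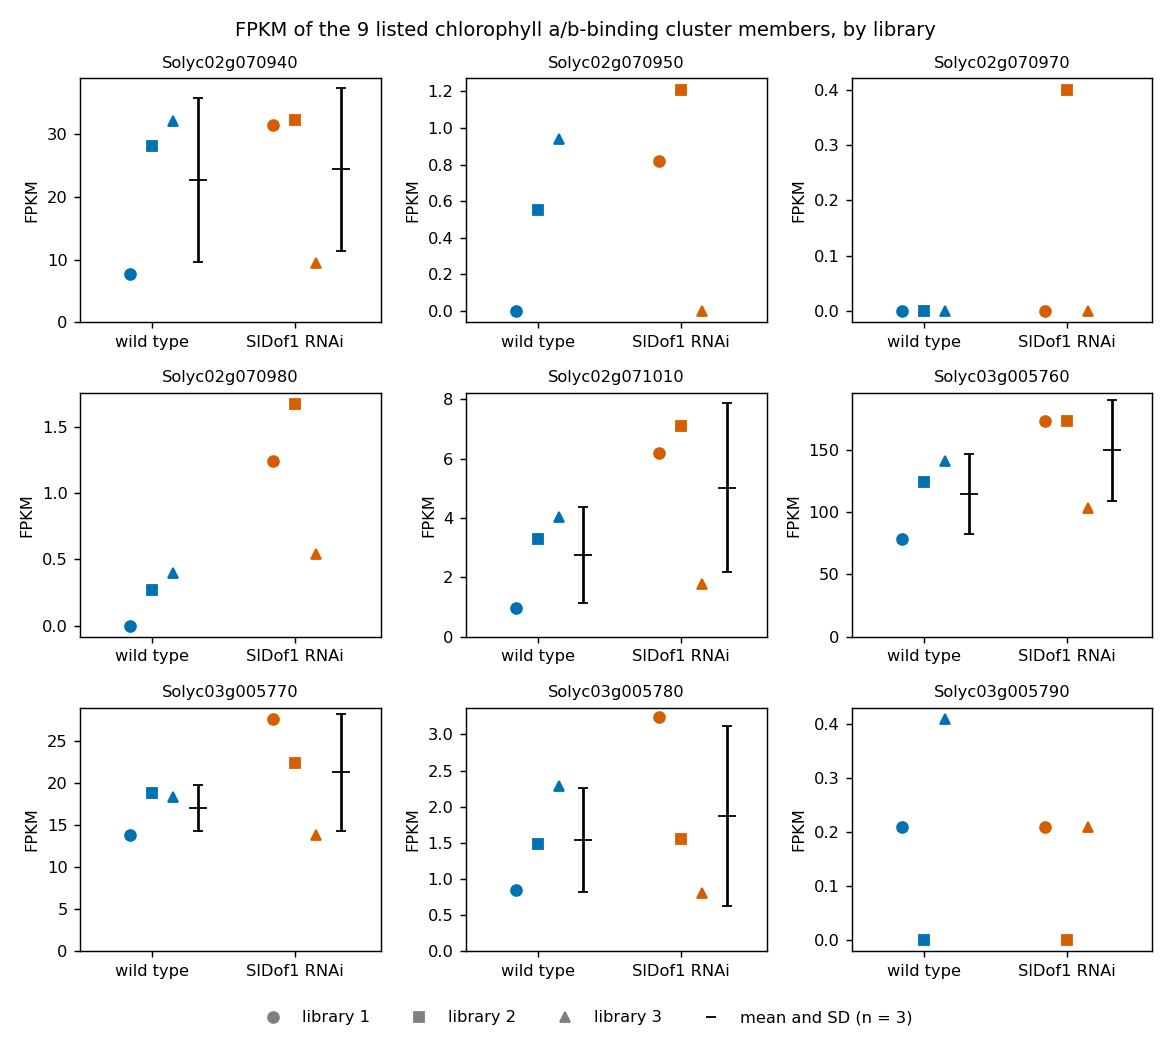
FPKM of the 9 listed members in each library (y axis, linear; symbols give the library number, black bars the mean and SD of the 3 libraries of a group for the 5 tested members). Wild-type library 1 and RNAi library 3 are the lowest of their group in all 5 tested members.

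By FPKM, a scale per length, the order of levels was Solyc03g005760, Solyc02g070940, Solyc03g005770, Solyc02g071010 and Solyc03g005780. The 6 libraries of Solyc03g005760 all lay above those of Solyc02g070940, and those of Solyc03g005770 above those of Solyc02g071010. Solyc02g070940 and Solyc03g005770 could not be ordered: the first was higher in 4 libraries and lower in wild-type library 1 and RNAi library 3. Solyc02g071010 was above Solyc03g005780 in each of the 6 libraries although their ranges overlapped. Below them, Solyc03g005780 exceeded Solyc02g070980 in 5 of 6 libraries, and the other copies overlapped in range.

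Summed over each cluster, the chromosome 3 genes gave most of the transcript, 81.3% to 91.5% of the expected counts of the 10 genes. The chromosome 3 sum was at 690, 1067 and 1210 expected counts in wild type and 1498, 1471 and 872 in RNAi fruit (libraries 1 to 3 of each). RNAi libraries 1 and 2 were the highest of all and RNAi library 3 lay among the wild-type libraries. In summed FPKM this was 133 ± 35.6 in wild type and 173 ± 47.8 in RNAi fruit (SD, n = 3). The sum was 1.25-fold higher in RNAi fruit (log2 difference 0.32 ± 0.25 SE, 95% interval of the fold 0.842 to 1.85), and the difference did not pass (edgeR adjusted p = 0.488).

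The chromosome 2 sum was at 64, 236 and 279 expected counts in wild type and 290, 317 and 86 in RNAi fruit. Wild-type library 1 and RNAi library 3 were far below the other 4 libraries, which lay close to each other across genotypes. In summed FPKM this was 26.2 ± 15.3 and 31.4 ± 17.1 (SD, n = 3), a log2 difference of 0.21 ± 0.56 (SE, 95% interval -1.06 to 1.48; edgeR adjusted p = 0.867). Without wild-type library 1 the fitted difference was -0.21, and without RNAi library 2 it was -0.10. In bulk tissue, fewer cells that express these genes and less transcript per cell cannot be told apart.

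Over both clusters the log2 difference was 0.30 ± 0.29 (SE; edgeR adjusted p = 0.589). Of the 5 tested members edgeR called 0, and 0 had an unadjusted p under 0.05; the count was also 0 by DESeq2 and by limma. Over all 16737 tested genes edgeR called 12.3% and DESeq2 11.8% (6.4% higher and 5.39% lower), and 25.3% had an unadjusted p under 0.05 in edgeR. All 5 fitted differences were above 0, as were those of 8120 of the 16737 tested genes, with a median of 0.27 on the log2 scale against -0.0097 over all tested genes. The members share reads in part and were low in the same libraries, so they are not 5 separate observations. The direction for Solyc02g070940 and Solyc03g005780 changed when some single libraries were left out. The upper bounds of the 95% intervals were 1.85-fold for the chromosome 3 sum and 2.80-fold for the chromosome 2 sum.

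**Figure D2:**
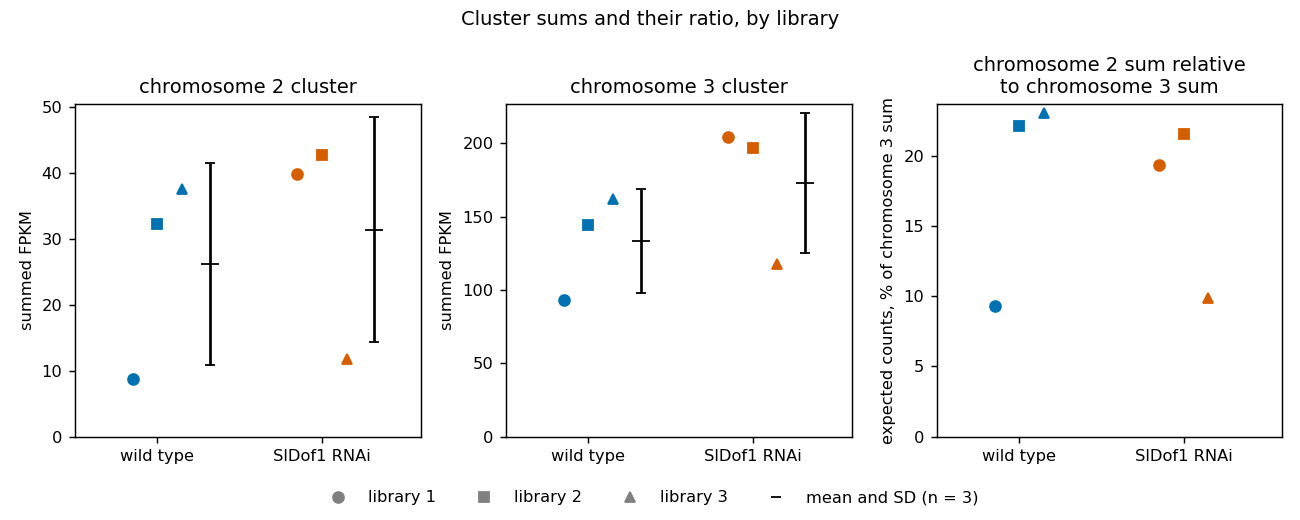
Summed FPKM of each cluster (left and middle; symbols give the library number, black bars the mean and SD of 3 libraries) and the chromosome 2 sum as a percentage of the chromosome 3 sum in expected counts (right). In each group 2 libraries lie together and 1 is low, and the ratio in the low libraries is 9.28% and 9.86% against 19.4% to 23.1% in the rest.

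The clusters varied widely within groups. The coefficient of variation of the chromosome 2 sum over 3 libraries was 58.6% in wild type and 54.5% in RNAi fruit, whereas the median over all tested genes was 11.9% and 11.8%. Only 0.962% and 1.28% of tested genes varied as much. Counting error was at most 12.5% for any library of this sum. The chromosome 3 sum varied by 26.7% and 27.7%, which 13.1% and 11.4% of tested genes reached.

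This spread lay between the same libraries in both genotypes. In all 5 tested members the lowest FPKM of the group was in wild-type library 1 and in RNAi library 3, a pattern found in 26.7% of tested genes. The chromosome 2 sum was 3.70-fold and 4.31-fold higher in wild-type libraries 2 and 3 than in library 1, and 3.40-fold and 3.65-fold higher in RNAi libraries 1 and 2 than in library 3. Both tested chromosome 2 members were at least 2-fold lower in each of these libraries than in every other library of the group, as were 0.92% of all tested genes, and none of the 3 tested chromosome 3 members was. For the chromosome 3 sum the folds were 1.55 and 1.73 in wild type and 1.73 and 1.67 in RNAi fruit.

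The proportion between the clusters was low in the same libraries. The chromosome 2 sum was 9.28%, 22.1% and 23.1% of the chromosome 3 sum in wild type and 19.4%, 21.5% and 9.86% in RNAi fruit (libraries 1 to 3 of each). On the log2 scale the ratio was -2.57 ± 0.742 in wild type and -2.64 ± 0.611 in RNAi fruit (SD, n = 3), and the genotypes did not differ in it beyond this spread (difference -0.07, two-sided exact permutation test, p = 0.7, where 3 against 3 cannot go below 0.1). With wild-type library 1 and RNAi library 3 left aside, the ratios were 22.1% and 23.1% in wild type and 19.4% and 21.5% in RNAi fruit, without a test. The difference in log2 ratio was -0.49 without wild-type library 1 alone and 0.28 without RNAi library 3 alone. The labels give no batch for wild-type library 1 and RNAi library 3, and the cause of their low ratio was not tested.

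With wild-type library 1 and RNAi library 3 left out, most fitted differences moved little and their intervals narrowed. Those of Solyc03g005770 (0.27 to 0.38) and Solyc03g005780 (0.25 to 0.32) rose. The chromosome 3 sum was 1.26-fold higher in RNAi fruit (log2 difference 0.34 ± 0.08 SE, n = 2 per group, edgeR adjusted p = 0.00622) and passed the test. The chromosome 2 sum did not (0.19 ± 0.11 SE, edgeR adjusted p = 0.237). Of the 5 members, 2 rose, namely Solyc03g005760 by 0.33 (log2; edgeR adjusted p = 0.00847) and Solyc02g071010 by 0.81 (log2; edgeR adjusted p = 0.0278), and 0 fell, with 3 higher and 0 lower at an unadjusted p under 0.05. Among all genes this fit called 22% (11.4% higher and 10.5% lower), and 33.8% had an unadjusted p under 0.05. Solyc03g005770 missed the threshold (0.38 ± 0.13 SE, edgeR adjusted p = 0.0560), and Solyc02g070940 was at 0.03 ± 0.11 (edgeR adjusted p = 0.860), with an interval from -0.21 to 0.28. The pair was left out because it stands apart in the libraries tested here, so part of the drop in spread follows from that choice. RNAi library 3 was itself 1.26-fold above wild-type library 1 in the chromosome 3 sum and 1.34-fold above it in the chromosome 2 sum, in summed FPKM and with no replicate.

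**Figure D3:**
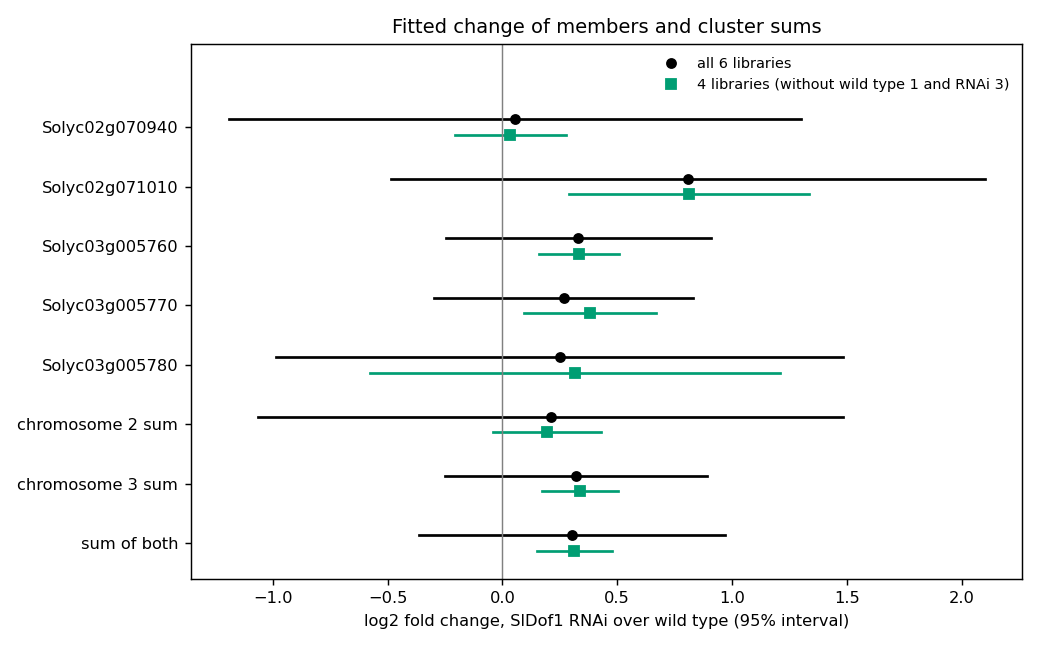
Log2 fold change of SlDof1 RNAi over wild type with its 95% interval (x axis) for the 5 tested members and the cluster sums, from all 6 libraries (black circles) and from 4 libraries (green squares). Most point estimates hardly move between the fits, but those of Solyc03g005770 (0.27 to 0.38) and Solyc03g005780 (0.25 to 0.32) rise. The intervals of Solyc02g071010, Solyc03g005760, Solyc03g005770, the chromosome 3 sum and the sum of both exclude 0 with 4 libraries and not with 6.

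Within the chromosome 2 cluster the shares of the main copies did not overlap between the genotypes, which as a property of FPKM was found in 31% of tested genes and was not counted for shares in other clusters. Solyc02g070940 made up 89.1%, 87.3% and 85.7% of the cluster's expected counts in wild type but 79.3%, 75.7% and 80.2% in RNAi fruit (libraries 1 to 3 of each). The groups did not overlap, and the low libraries lay with their own genotype. A share depends on how shared reads were divided among copies, and other divisions were not tried. In RNAi library 2 the expected counts of Solyc02g071010 (52.62) and Solyc02g070980 (12.38) were not whole. In wild-type library 3 that of Solyc02g071010 (29.99) was not whole either. Solyc02g071010 made up 10.9%, 10.2% and 10.7% in wild type and 15.5%, 16.6% and 15.1% in RNAi fruit. As these copies hold nearly all counts of the cluster, their shares mirror each other and are not separate observations. The minor copy Solyc02g070980 made up 0%, 0.847% and 1.08% in wild type and 3.10%, 3.91% and 4.65% in RNAi fruit, from the few counts given above.

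Counting error is wide for the share of Solyc02g071010. The intervals given here take the divided counts as they are and do not cover how shared reads were assigned. In wild-type library 1 the 95% Wilson interval ran from 5.40% to 20.9%, and in RNAi library 3 from 9.05% to 24.2%. In wild-type library 2 it ran from 6.93% to 14.7% and in RNAi library 2 from 13.02% to 21.2%, and every wild-type interval overlapped every RNAi interval. For Solyc02g070940 the intervals of wild-type libraries 2 (82.4% to 90.9%) and 3 (81.1% to 89.3%) did not overlap that of RNAi library 2 (70.7% to 80.1%), and the other pairs of libraries overlapped. No test was made of this difference, and 3 libraries against 3 could not give an exact p below 0.1. On chromosome 3 the share of Solyc03g005760 was 84.1%, 85.9% and 87.1% in wild type and 84.8%, 87.8% and 87.5% in RNAi fruit, and the groups overlapped.

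**Figure D4:**
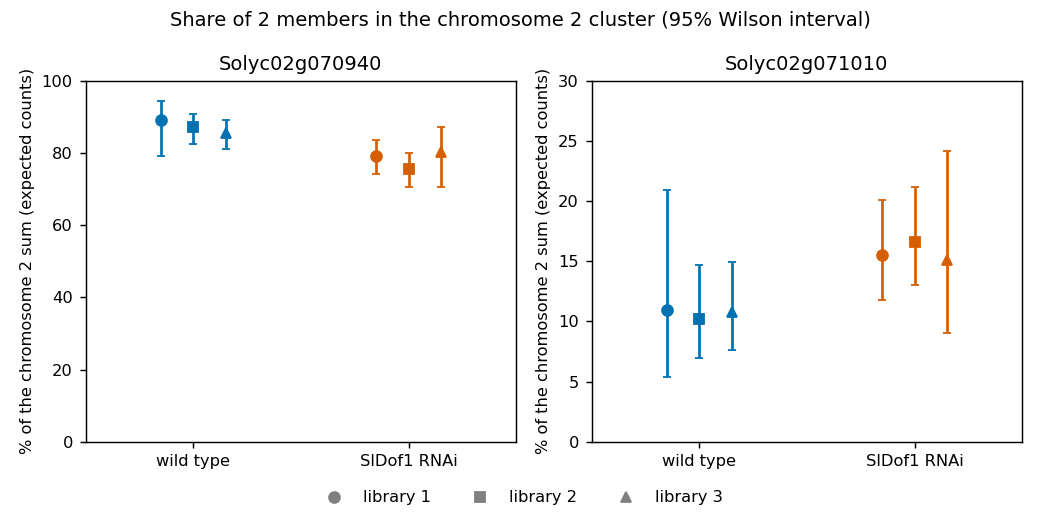
Share of Solyc02g070940 (left) and Solyc02g071010 (right) in the expected counts of the chromosome 2 cluster (y axis, percent; bars are 95% Wilson intervals, which cover counting error only) in each library. The first lies at 85.7% to 89.1% in wild type and 75.7% to 80.2% in RNAi libraries, and the second at 10.2% to 10.9% and 15.1% to 16.6%.

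The genes next to the clusters were examined by identifier order, 5 on each side and 1 between members. The files give no names for them. Solyc02g071000, which lies between members and has the same listed length of 798 bases, had expected counts of 3, 2 and 3 in wild type and 8, 7 and 4 in RNAi fruit, too few for the main test. Among all listed genes, 28 have this length, members included. The next identifiers above the chromosome 2 cluster carried its pattern. Solyc02g071020 was at 15.4, 55.02 and 62.7 FPKM in wild-type libraries 1 to 3 and 71.8, 78.7 and 21.6 FPKM in RNAi libraries 1 to 3. Solyc02g071030, also of 798 bases, was at 3, 13.8 and 12.9 FPKM and at 21.8, 23.7 and 5.17 FPKM. Both were low in wild-type library 1 and RNAi library 3, the first by 3.32-fold to 4.06-fold against the other libraries of its group. Of the 14 tested neighbours of both clusters, 4 were lowest of their group in these libraries, a share near the 26.7% of all tested genes. At least 2-fold lower there than in every other library of the group were 3 of the 14, beside 0.92% of all tested genes. These 3 include Solyc02g071030. In wild-type library 3 its expected count (96.01) and that of the member Solyc02g071010 (29.99) were not whole. Reads may thus be shared between them, which was not tested, and Solyc02g071030 may not be independent of the cluster.

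With Solyc02g071000 and Solyc02g071030 added, the chromosome 2 sum had a log2 difference of 0.38 ± 0.57 (SE; edgeR adjusted p = 0.746). Of the 14 tested neighbours edgeR called 0 in the 6 libraries, with 1 at an unadjusted p under 0.05, while neither DESeq2 nor limma called any; over all genes edgeR called 12.3%, and 25.3% had such an unadjusted p. The 4 libraries gave 4 calls among the 14, a share near the 22% of all genes. Of these, Solyc02g071020 and Solyc02g071030 rose by 0.31 and 0.72 (log2; edgeR adjusted p = 0.0269 and 0.00188). Solyc02g071040 and Solyc03g005730 fell by 0.31 and 0.31 in the same fit (edgeR adjusted p = 0.0123 and 0.00931). In the other direction along chromosome 2, Solyc02g070930 had expected counts of 2, 0 and 0 in wild type and 1, 0 and 0 in RNAi fruit, too few to test. The nearest tested identifier on that side, Solyc02g070910, varied little, at 4.20 to 4.74 FPKM in wild type and 4.75 to 5.45 FPKM in RNAi fruit.

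Next to the chromosome 3 cluster the pattern was present on 1 side. Solyc03g005750, just below it, was at 19.8, 28.8 and 27.5 FPKM in wild type and 30.1, 29.4 and 19.9 FPKM in RNAi fruit, with wild-type library 1 and RNAi library 3 the lowest as in the cluster. The other libraries of each group were only 1.39-fold to 1.51-fold higher. Solyc03g005740, named here after its values were seen, ranged more widely, with 49.6, 145 and 164 FPKM in wild type and 165, 185 and 51.8 FPKM in RNAi fruit. On the other side Solyc03g005800 was at 8.77 to 11.4 FPKM in wild type and 10.01 to 12.02 FPKM in RNAi fruit, with wild-type library 1 the highest of its group.

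**Figure D5:**
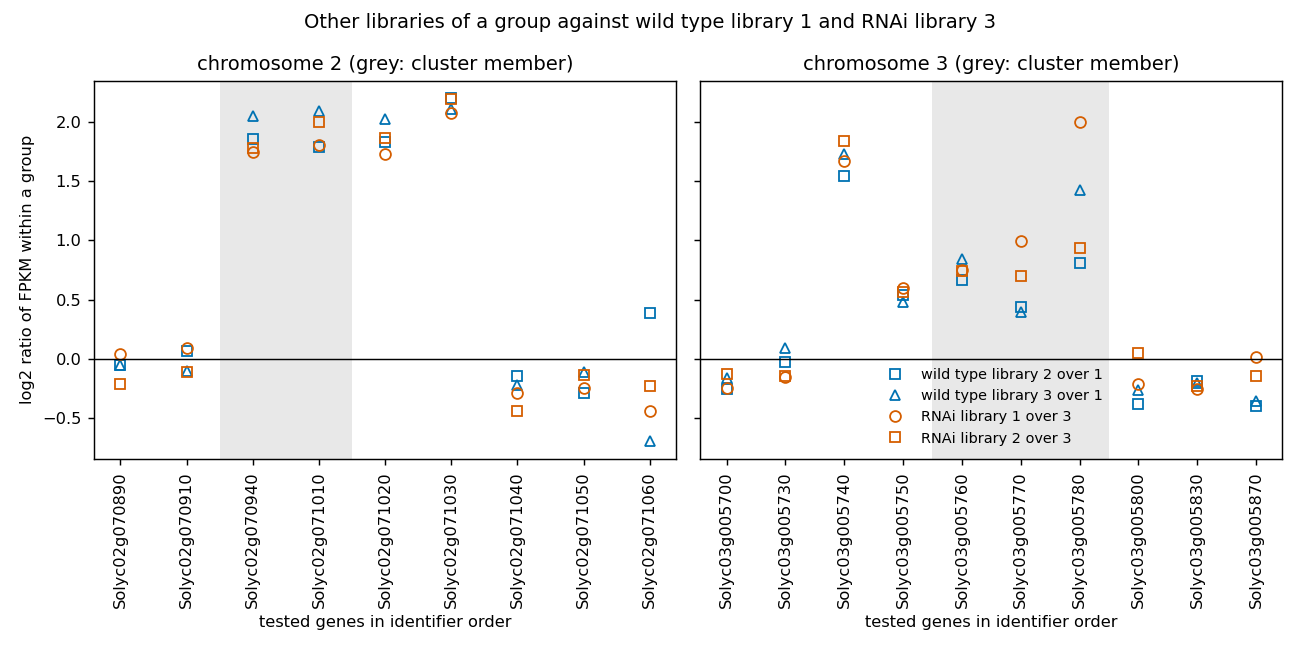
Log2 ratio of FPKM of the other libraries of a group to wild-type library 1 (blue) and to RNAi library 3 (orange) for tested members (grey) and tested neighbours in identifier order on each chromosome. High ratios extend from the chromosome 2 members to Solyc02g071020 and Solyc02g071030 and, on chromosome 3, from the members to Solyc03g005750 and Solyc03g005740, with ratios closer to 0 or below it beyond. Solyc02g071030 may share reads with the chromosome 2 members, which was not tested.

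Other photosynthesis genes were taken from a list of 27 identifiers recalled as light-harvesting proteins (19), photosystem subunits and plastocyanin (5) and the small subunit of Rubisco (3), none of which the sources used here annotate. Of the 22 tested, 3 rose and 0 fell in the 6 libraries by edgeR, 5 being higher and 0 lower before adjustment (p under 0.05); DESeq2 and limma gave the same counts of calls. Those that rose were the 3 identifiers recalled for Rubisco, which had a median log2 difference of 1.26, against 0.20 for the 14 tested of the light-harvesting group and 0.04 for the 5 photosystem subunits and plastocyanin. The background was 6.54% of tested genes higher and 5.8% lower. In the 4 libraries 9 rose and 0 fell, beside 11.4% and 10.5% of all tested genes, and 6 of the 9 were in the light-harvesting group.

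The low level in wild-type library 1 and RNAi library 3 was shared more widely than the clusters. It was seen in 13 of the 14 light-harvesting identifiers, 4 of the 5 photosystem and plastocyanin identifiers and 2 of the 3 Rubisco identifiers, beside 26.7% of all tested genes. A level at least 2-fold below every other library of the group was seen in 2, 1 and 0 of them, beside 0.92% of all tested genes.

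The genes most like each cluster sum over the 6 libraries were ranked by Pearson correlation of log2 CPM among 12684 genes with a mean of at least 5 FPKM. The points are 2 low and 4 high libraries, so the values describe that split more than a graded relation. For chromosome 2 the closest were Solyc11g005330 and the neighbour Solyc02g071020 (r = 0.998 for both), and 625 genes reached 0.95. For chromosome 3 they were Solyc03g116670 (r = 0.998) and Solyc02g082140 (r = 0.997), with 406 genes at 0.95 or above. The 2 cluster sums correlated with r = 0.952.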

How the data were processed

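RNA-seq libraries from tomato pericarp, 3 per genotype, were analysed from 1 deposited file per library. The authors deposited an expected count and an FPKM value per gene with a listed length, per the file headers. The sources used here do not state the aligner, counting program, annotation, genome build or strand. Genes absent from a file were set to 0. The labels do not say whether libraries are separate plants, so p-values measure only how these samples vary, which may be technical.

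Expected counts were rounded, filtered with filterByExpr (10 counts, 15 in total) and scaled by TMM. Genotypes were compared by the quasi-likelihood test of edgeR (group as the only term), with Benjamini-Hochberg adjustment over all genes and a threshold of 0.05. For cluster sums, members were replaced by summed rows before the fit. A standard error is |log2 fold change| over the square root of F, and 95% intervals follow from them. On simulated counts for this comparison (16559 genes) the test called 29.2% of 1.5-fold, 77.6% of 2-fold, 95.8% of 4-fold and 100% of 8-fold changes. These rates were not split by spread within groups, so they cannot be carried over to the cluster members and sums. The coefficient of variation of the chromosome 2 sum was 58.6% in wild type and 54.5% in RNAi fruit. The medians over all tested genes were 11.9% and 11.8%. What size of change could be detected at the spread of the clusters was not tested. Alternatives were other scalings, no filter, DESeq2, limma on log2(FPKM + 1) or log2(FPKM + 0.1), a replicate block, and left-out libraries. A term for the 2 libraries that stand apart and a wider chromosome 2 sum were added after the data were seen.

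All members were named; of neighbours, those called and the nearest on each side; and the 2 genes most like each sum. Naming Solyc02g070910, Solyc02g071000 and Solyc03g005740 was decided after seeing their values. The members and lists were chosen with earlier results of these data known. Gene, promoter and protein sequences were not used here. Software was DESeq2 1.42.0, edgeR 4.0.16 and limma 3.58.1 in R 4.3.3, and scipy 1.17.1 and matplotlib 3.10.9 in Python 3.11.15.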

Additional observations from a re-analysis of the deposited data

How the results depend on the processing

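Under the other scalings, no filter, DESeq2 and limma on FPKM, 0 members passed and all differences kept their direction. Without wild-type library 1 and RNAi library 3, the log2 difference of the chromosome 3 sum (0.34) and of both clusters (0.31) passed, as did 2 members, 9 other photosynthesis genes and 3693 genes in all. With a term for these libraries the values were 0.32 and 0.30, with 2 members, 9 other photosynthesis genes and 5384 genes. The lower residual spread is built into both fits. Leaving out 1 library at a time gave -0.21 to 0.61 for the chromosome 2 sum, 0.12 to 0.54 for the chromosome 3 sum, 0.07 to 0.55 for both, -0.36 to 0.44 for Solyc02g070940, 0.40 to 1.22 for Solyc02g071010, 0.12 to 0.54 for Solyc03g005760, 0.04 to 0.50 for Solyc03g005770, -0.38 to 0.66 for Solyc03g005780 and -0.49 to 0.28 for the log2 ratio of the clusters, with 0 members, 3 to 4 other photosynthesis genes and 1108 to 2038 genes passing. The cause of the reversals was not tested.

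Deviations from the group mean correlated at r = -0.49, 0.28 and -0.52 between same-numbered libraries, and no library correlated best with its own number. Wild-type library 1 and RNAi library 3 correlated at r = 0.70, and their split from the rest weighs on the other values. This check therefore cannot decide whether the replicate numbers pair the libraries. With the replicate number as a block 877 genes passed and 0 members, at 0.24 for the chromosome 2 sum, 0.32 for chromosome 3 and 0.30 for both. Low counts limit Solyc02g070950, Solyc02g070970, Solyc02g070980 and Solyc03g005790, which were tested only without a filter, where 0 passed.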
